A study of Mus musculus with 12 samples.

Results

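The proteasome transcripts of these hearts were taken as the genes whose symbol starts with Psma, Psmb, Psmc, Psmd, Psme or Psmg followed by a number. A gene was counted where the platform annotation gives at least 1 probe set to it alone, and its level was taken from the brightest such probe set by mean log2 signal over the 12 arrays. The rule found 48 genes among the 18193 genes of the array, with 99 probe sets. The choice used symbols and mean brightness, and no difference between groups. Of the 48, 45 had a probe set above the brightness filter described with the data. The genes fell into 15 subunits of the catalytic core (Psma1 to Psma8 and Psmb1 to Psmb7), 17 subunits of the regulatory cap (Psmc1 to Psmc6 and the Psmd genes other than Psmd5, Psmd9 and Psmd10), 3 catalytic subunits of the immunoproteasome (Psmb8, Psmb9 and Psmb10), 3 activators (Psme1, Psme3 and Psme4) and 7 assembly factors (Psmd5, Psmd9, Psmd10 and Psmg1 to Psmg4). Psmb11, the catalytic subunit of the thymus, was kept apart. The rule also takes Psmc3ip and Psme3ip1, which are named after a proteasome gene and are not proteasome subunits, so they were placed in no class. The 45 genes above the filter, called the measured members, are 44 genes of the classes and Psme3ip1.

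The proteasome is the barrel-shaped protease that degrades proteins marked with ubiquitin. Its catalytic core is a stack of alpha and beta rings, the cap recognizes, unfolds and feeds the substrate with the help of ATPases, and dedicated chaperones build both parts. In cells exposed to interferon, Psmb8, Psmb9 and Psmb10 replace the constitutive catalytic subunits Psmb5, Psmb6 and Psmb7 in newly built particles, which changes the peptides that are cut for presentation to T cells. In the heart, where cardiomyocytes are rarely renewed, this system removes damaged contractile and misfolded proteins.

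RNA was taken from the hearts of 12 C57BL/6 mice aged 8 to 9 weeks, with 1 array per mouse. Of these, 3 carried the transgene ILKR211A Tg (Tg R211A here), 3 carried ILKS343D Tg (Tg S343D), and 6 were littermates labelled WT. Integrin-linked kinase (ILK) is a scaffold and kinase at cell adhesions. The transgenes are cardiac-specific forms of human ILK, the R211A form resistant to activation and the S343D form constitutively active. The sources used here name neither the promoter that drives them nor the number of founder lines. Control titles are numbered 1 to 3 in differing spellings, which were taken as a first and a second control set of 3 mice, and no label ties a set to a line. Heart numbers 1 to 6 cover Tg S343D with the first set, and 7 to 12 cover Tg R211A with the second, without a statement of what they mark. Apart from 1 mouse described next to the data checks, all mice are labelled female. All 6 WT mice served as controls for both lines, so the comparisons with WT share their control samples. The labels name no surgery, whereas the study's methods describe 12 arrays of R211A mice and controls with and without infarction after coronary ligation. Whether any of these hearts was infarcted cannot be told from the labels, and no comparison by infarction was made.

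Signal intensities from MAS5 were deposited, with a trimmed mean of 150.001 on each array and medians between 41.5 and 49.1. Precision is limited by how few arrays there are in each group. Probe sets with a mean log2 signal of at least 5.44, a signal of 43.5, were tested with limma on log2 signal, two-sided, with Benjamini-Hochberg adjustment over all 22519 of them, and an adjusted p under 0.05 is called a change. Ilk followed the labels, with signals of 8223, 9553 and 8622 in Tg R211A hearts, 3258, 3272 and 4016 in Tg S343D hearts and 551 to 657 in controls (log2 differences 3.87 and 2.54, adjusted p = 3.8e-13 and 1.6e-10 from limma). The first control of the first set carries the label male, but its Xist signal of 718 lay among the 703 to 864 of all 12 mice, so the label was not borne out. All 8 cardiomyocyte markers were bright (lowest signal 4249), whereas the summed signal of 4 atrial markers ran from 1835 to 20842, with both low and high hearts in each genotype. The p-values measure the spread between these mice.

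No proteasome transcript of Tg R211A hearts differed from littermate controls in limma's test. Of the 45 measured members 0 were called, with a lowest adjusted p of 0.553, where 0.206% of the 11189 measured genes were called. By unadjusted p under 0.05 there were 3 of 45, beside 7.52% of all genes, a similar share. The median log2 difference of the 45 genes was -0.0014, that of all genes was also -0.0014, and 22 of the 45 lay above 0. In Tg S343D hearts 0 of 45 were called, with a lowest adjusted p of 0.995 and 0.00894% of all genes called. There 4 of 45 had an unadjusted p under 0.05, beside 3.79% of all genes, the median was -0.017 against -0.00077 for all genes, and 16 of 45 lay above 0.

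The plot of log2 signal in each heart shows the spread of the core and cap genes. Across the 6 WT mice, the signals of the 31 measured core and cap genes had coefficients of variation between 3.28% for Psmb5 and 13.8% for Psmc4, with a median of 6.84%. The median SD on the log2 scale was 0.096 for core and cap genes and 0.113 for the 3741 genes at least as bright as the dimmest of them. The 3741 genes were not otherwise matched to core and cap in brightness. Immunoproteasome genes spread far more than core and cap, with coefficients of variation between 32.8% and 37%.

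**Figure D1:**
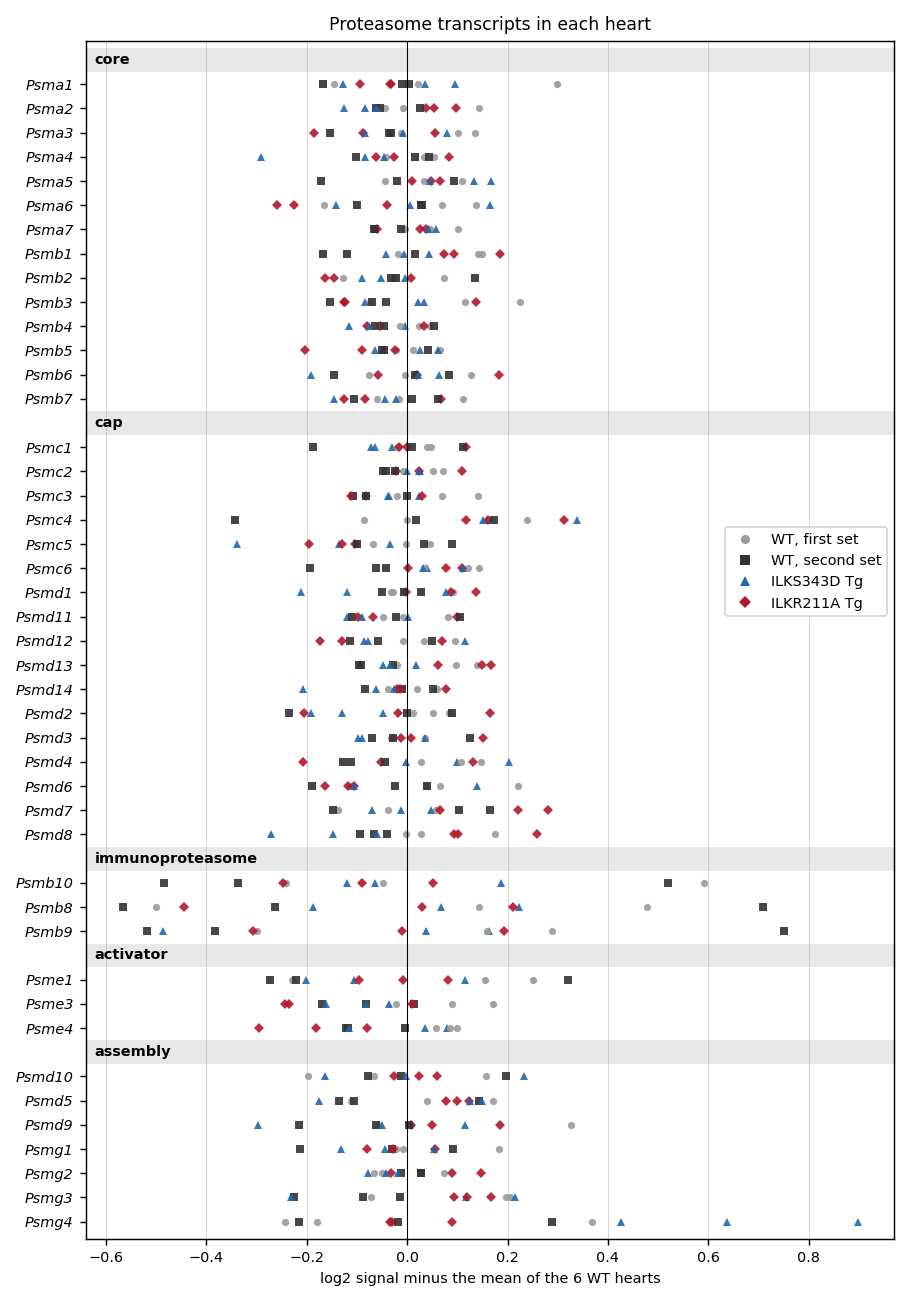
Log2 signal of each of 44 proteasome genes in each of 12 hearts, minus the mean of the 6 WT hearts (x axis, log2 units), with genes grouped by class on the y axis and 1 symbol per heart. Psmb8, Psmb9 and Psmb10 spread most widely among the WT hearts, and the 3 Tg S343D hearts of Psmg4 lie to the right of its other hearts.

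The core was measured by 14 genes, since Psma8, the alpha subunit of male germ cells, lay below the filter with signals of 0.66 to 25.7. Psmb11 was also below it, at 1.2 to 7.97 in all hearts. In Tg R211A hearts the 14 core genes had a median log2 difference of -0.036 from controls, with 5 above 0 and none called. Their 95% intervals together spanned -0.35 to 0.28. In Tg S343D hearts the median was -0.0072, again with 5 above 0, and the intervals spanned -0.28 to 0.26. Every interval of the core lay within 0.5 of 0 on the log2 scale in both lines.

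The constitutive catalytic subunits were steady. Psmb5, which carries the chymotrypsin-like site, had signals of 1879, 2032 and 2127 in Tg R211A hearts, 2069, 2201 and 2256 in Tg S343D hearts, and a lowest, median and highest control signal of 2090, 2156 and 2264. Both lines overlapped the controls, and the log2 differences were -0.11 (SE 0.0555, adjusted p = 0.713 from limma) and 0.007. Psmb6, with the caspase-like site, gave 1064, 1122 and 1257 in Tg R211A hearts and 969, 1123 and 1156 in Tg S343D hearts against 1001, 1112 and 1209 in controls. Psmb7, with the trypsin-like site, gave 4559, 4696 and 5217 in Tg R211A hearts and 4500, 4824 and 4898 in Tg S343D hearts, against 4622, 4965 and 5372 in controls. The log2 differences of Psmb6 were 0.048 and -0.036 and those of Psmb7 were -0.047 and -0.071, in Tg R211A and Tg S343D hearts in turn.

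Among the other core genes, Psma6, an alpha ring subunit, had the smallest p in Tg R211A hearts. Its signals there were 1448, 1483 and 1686, and the lowest, median and highest control signals were 1547, 1769 and 1906. Its log2 difference was -0.18 (SE 0.0817, unadjusted p = 0.0491, adjusted p = 0.664 from limma), and 1 heart overlapped the controls. The 2 other probe sets of Psma6 above the filter gave 0.018 and 0.31 in the same comparison, so the probe sets of this gene disagreed in sign. Psma4, another alpha subunit, read 1192, 1377 and 1414 in Tg S343D hearts against a control range of 1360 to 1515 with a median of 1485. Its log2 difference was -0.14 (SE 0.0652, unadjusted p = 0.0474, adjusted p = 0.995 from limma), with 1 heart below all controls and the others within their range.

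The cap was measured by all 17 genes. In Tg R211A hearts their median log2 difference was 0.034, with 10 above 0, and in Tg S343D hearts it was -0.022, with 5 above 0, and none were called. The intervals of the 17 spanned -0.31 to 0.42 and -0.32 to 0.44. The ATPase ring (Psmc1 to Psmc6) had medians of 0.035 and 0.00011, and the 11 non-ATPase subunits had medians of 0.014 and -0.051.

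Psmd7 and Psmd8, non-ATPase subunits of the cap's lid, had the smallest p among cap genes in Tg R211A hearts. Psmd7 gave 506, 563 and 587 there, with control signals of 436 at the lowest, 487 at the median and 542 at the highest (log2 difference 0.19, SE 0.0824, unadjusted p = 0.0375, adjusted p = 0.639 from limma). Psmd8 gave 970, 976 and 1087 in Tg R211A hearts, 753, 820 and 872 in Tg S343D hearts, and 852, 896 and 1026 in controls at the lowest, median and highest. Its log2 differences were 0.15 in Tg R211A hearts (unadjusted p = 0.0542) and -0.16 in Tg S343D hearts (unadjusted p = 0.0435, adjusted p = 0.995 from limma). Psmd8 lay above the control median in every Tg R211A mouse and below it in every Tg S343D mouse, and both groups overlapped the controls.

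Psmc5, an ATPase subunit, was the 1 proteasome gene whose Tg R211A hearts did not overlap the controls, where 4.18% of all genes did not overlap. Its signals were 766, 802 and 818 against 819, 888 and 934 in controls at the lowest, median and highest (log2 difference -0.14, exact permutation test p = 0.0238, adjusted p = 0.689 from limma). In Tg S343D hearts Psmc5 gave 694, 799 and 857, with 2 hearts below every control (log2 difference -0.17, unadjusted p = 0.0308, adjusted p = 0.995 from limma). Psmc4, also an ATPase, had signals of 734, 756 and 840 in Tg R211A hearts and 752, 756 and 855 in Tg S343D hearts against 534 to 799 in controls, with a median of 681. Its brightest probe set thus gave 0.20 and 0.22 on the log2 scale, neither called, and its other probe set gave -0.028 and -0.071.

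**Figure D2:**
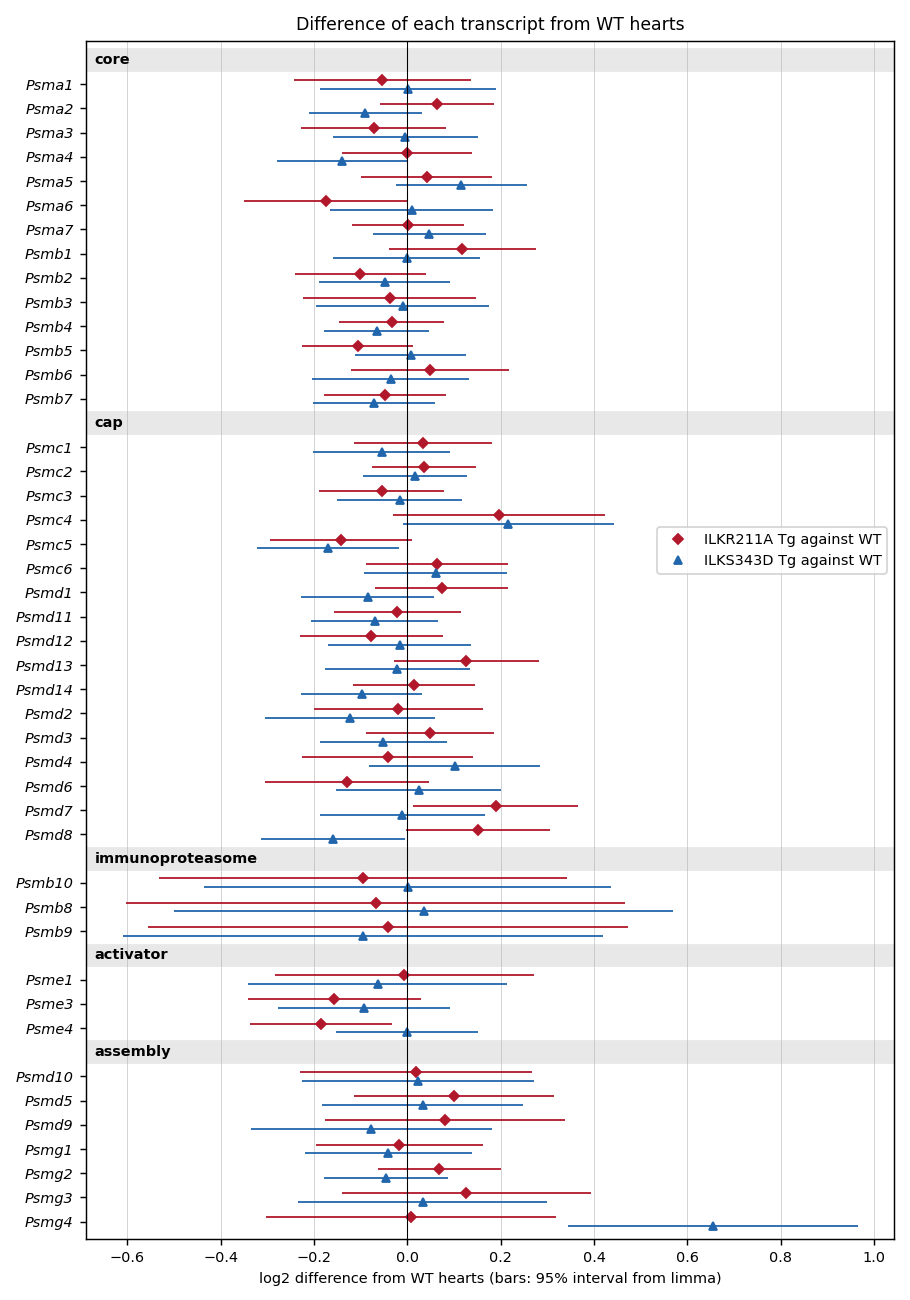
Log2 difference of each of 44 proteasome genes from the 6 WT hearts (x axis) with its 95% interval from limma (bars), for Tg R211A hearts (diamonds) and Tg S343D hearts (triangles), n = 3 each. Apart from Psmg4 in Tg S343D hearts the points lie between -0.19 and 0.22.

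The activators dock on the core in place of the cap. Psme4, a single-chain activator tied to acetylated histones and DNA repair, had the smallest unadjusted p of all 45 genes in Tg R211A hearts. Its brightest probe set gave 1795, 1943 and 2085 in Tg R211A hearts, 2035, 2257 and 2328 in Tg S343D hearts, and 2026, 2246 and 2362 in controls at the lowest, median and highest. The log2 difference in Tg R211A hearts was -0.19 (SE 0.0711, unadjusted p = 0.02, adjusted p = 0.553 from limma, exact permutation test p = 0.0476), with 2 hearts below every control. It was -0.27 against the first control set and -0.11 against the second. Of its 4 other probe sets above the filter, 3 gave between -0.30 and -0.12 and 1 gave 0.073. Psme3, an activator of the nucleus, gave -0.16 in Tg R211A hearts and -0.093 in Tg S343D hearts, neither called.

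Psme1, which forms the interferon-inducible activator with Psme2, had 2043, 2171 and 2309 in Tg R211A hearts, 1898, 2028 and 2364 in Tg S343D hearts and 1805, 2149 and 2725 in controls at the lowest, median and highest (log2 differences -0.0071 and -0.064). Psme2 has no probe set of its own and was read only through 1 that it shares with Psme2b, so it is not among the 48. That probe set gave 872, 1016 and 1050 in Tg R211A hearts, 971, 986 and 1007 in Tg S343D hearts and 877, 990 and 1386 in controls. For both activator genes the controls spread more widely than either line.

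By brightest probe set, the assembly factors held the largest difference of the 45 genes. Psmg4, a chaperone that helps to build the alpha ring, had signals of 334, 279 and 241 in Tg S343D hearts, 175, 175 and 191 in Tg R211A hearts, and 231, 158 and 151 in the first and 177, 219 and 154 in the second control set. Every Tg S343D heart was above every control and every Tg R211A heart, and the Tg R211A hearts lay inside the control range. The log2 difference between Tg S343D hearts and controls was 0.65 (SE 0.145, unadjusted p = 0.000454, exact permutation test p = 0.0119, where no smaller value is possible with 3 and 6 mice), a 1.57-fold higher signal with a 95% interval of 1.27 to 1.95. It did not pass the adjustment (adjusted p = 0.995 from limma), and over all alternatives tried its lowest adjusted p was 0.523. Across all genes 1.99% had Tg S343D hearts that did not overlap the controls, and Psmg4 was the 1 of 45 measured members. The difference was 0.67 against the first control set and 0.64 against the second, and 0.53 to 0.77 with any 1 mouse left out. Psmg4 was read from a single probe set.

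By their brightest probe sets, the other assembly factors showed no such difference. A dimmer probe set of Psmd9, with control signals of 42.5 to 69.2, gave 0.54 in Tg S343D hearts and 0.36 in Tg R211A hearts. The 7 genes had in Tg R211A hearts a median log2 difference of 0.068, with 6 above 0, and in Tg S343D hearts of 0.022, with 4 above 0. The base chaperones Psmd5, Psmd9 and Psmd10 had medians of 0.081 and 0.022, and the core chaperones Psmg1 to Psmg4 had medians of 0.038 and -0.0039. Psmg1, Psmg2 and Psmg3 lay between -0.046 and 0.033 in Tg S343D hearts. The promoter of Psmg4 is shown because this gene differed most, with a match to the core of interferon response elements (GAAA, 2 free bases, GAAA) in capitals. It runs from 250 bases before the transcription start to 50 after it in the gene's sense (RefSeq, GRCm38.p6), and the match starts 15 bases after the start.
Psmg4 promoter, chr13:34162714-34163013, plus strand: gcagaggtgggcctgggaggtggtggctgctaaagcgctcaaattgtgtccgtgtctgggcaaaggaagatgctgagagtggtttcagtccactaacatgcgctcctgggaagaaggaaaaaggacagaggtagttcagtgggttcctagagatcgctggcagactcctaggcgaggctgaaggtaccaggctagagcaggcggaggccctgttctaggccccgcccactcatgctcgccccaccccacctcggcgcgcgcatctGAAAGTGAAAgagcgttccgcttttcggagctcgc

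**Figure D3:**
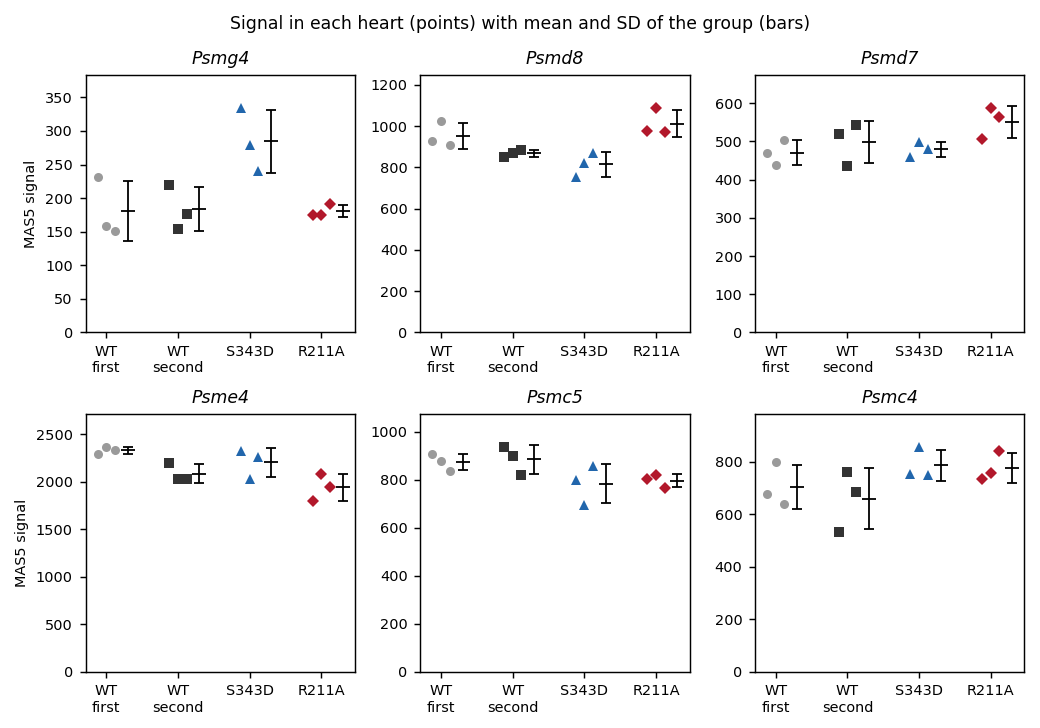
MAS5 signal (y axis, linear, from 0) of 6 proteasome genes in each heart (points) by group (x axis), with the mean and SD of the 3 hearts of each group beside them (bars). Psmg4 reads 241 to 334 in Tg S343D hearts and at most 231 elsewhere, and Psmd8 reads 970 to 1087 in Tg R211A hearts and 753 to 872 in Tg S343D hearts.

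Between the lines, 0 of 45 measured members were called, with a lowest adjusted p of 0.241, where 0.152% of all genes were called. By unadjusted p under 0.05 there were 4 of 45, beside 7.85% of all genes. Psmg4 read lower in hearts of Tg R211A than of Tg S343D (log2 difference -0.65, unadjusted p = 0.00165, adjusted p = 0.241 from limma) and Psmd8 was higher (0.31, SE 0.0835, unadjusted p = 0.00212, adjusted p = 0.257 from limma). Psma2, an alpha subunit, gave 1271, 1285 and 1324 in Tg R211A hearts and 1135, 1168 and 1188 in Tg S343D hearts (0.15, unadjusted p = 0.035), with control signals of 1186 at the lowest, 1216 at the median and 1367 at the highest. The other gene below 0.05 was Psme4 at -0.19. The lines did not overlap for 9 of 45 genes, beside 14.5% of all genes. For each of the 9 the exact permutation test gave p = 0.1, the smallest that 3 against 3 allow. Groups of 3 that do not overlap always give this value, so it adds nothing to the count. The 9 were Psmg4, Psmd8, Psma2, Psmd7, Psmd13, Psmd14, Psmb1, Psmc1 and Psma7, of which Psmg4 and Psma7 were lower in Tg R211A hearts and the others higher. The line contrast follows the heart numbers, 7 to 12 against 1 to 6, so line and number range cannot be told apart in it.

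The control sets show how far proteasome transcripts differ without a difference in genotype. Between the first and the second set 0 of 45 genes were called, beside 0.0179% of all genes, and 4 of 45 had an unadjusted p under 0.05, beside 7.25%. The first set was higher for 38 of 45 genes with a median log2 difference of 0.081, where the median of all genes was 0.011 and 53.4% of them were higher. Core genes were higher in the first set in 13 of 14 cases and cap genes in 14 of 17. Psmc6, an ATPase subunit, had 1461, 1355 and 1440 in the first set and 1157, 1267 and 1286 in the second (0.20, SE 0.0656, unadjusted p = 0.00926, adjusted p = 0.498 from limma). Psmb1, a beta subunit, had 1180, 1175 and 1052 in the first and 1076, 949 and 979 in the second. Psmd4, a ubiquitin receptor of the cap, had 889, 818 and 865 in the first set and 779, 735 and 742 in the second, and Psma3, an alpha subunit, had 1907, 1952 and 1762 against 1733, 1738 and 1598. For Psme4, named above for Tg R211A hearts, the first set had 2294, 2362 and 2336 and the second 2026, 2198 and 2031. Psmc6, Psmd4, Psma3 and Psme4 were among the genes that did not overlap between the sets, 8 of 45 beside 12.2% of all genes.

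The class medians of the lines moved with the control set used. For the core, the median log2 difference of Tg R211A hearts was -0.055 against the first set and 0.0091 against the second, and for Tg S343D hearts it was -0.068 and 0.024. For the cap the values were -0.0021 and 0.052 in Tg R211A hearts and -0.078 and -0.033 in Tg S343D hearts. Within the number range that each line shares with a control set, the medians were thus 0.0091 and 0.052 for core and cap in Tg R211A hearts and -0.068 and -0.078 in Tg S343D hearts. No core or cap gene was called in either, where 20 and 1 of all 11189 genes were.

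Within these ranges, replicate numbers also pair each transgenic heart with a control of adjacent heart number. A fit within the 6 pairs, chosen after the data were seen, called 0 of 45 measured members in Tg R211A hearts and 0 in Tg S343D hearts. Of all 11189 genes it called 24 and 1. The lowest adjusted p of the members was 0.38 and 0.56 from limma. It gave 7 members with an unadjusted p under 0.05 in Tg R211A hearts, where the fit without pairs gave 3, beside 9.63% of all genes, and 4 in Tg S343D hearts, beside 7.53%.

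The 7 in Tg R211A hearts were Psmc6 (log2 difference 0.16), Psmb1 (0.21), Psma6 (-0.16), Psmd8 (0.22), Psmc4 (0.25), Psmd13 (0.20) and Psmb2 (-0.13), and the 4 in Tg S343D hearts were Psmg4 (0.67), Psmd2 (-0.17), Psmd8 (-0.23) and Psma4 (-0.16). All 3 pairs had 1 sign for 17 of 45 members in Tg R211A hearts, beside 33.7% of all genes. Of these 13 were higher and 4 lower, beside 1971 and 1804 of all genes. In Tg S343D hearts it was 16 of 45, beside 28.7%, with 3 higher and 13 lower beside 1492 and 1715 of all genes. Each line was set here against 1 control set, and the first set was higher than the second for 38 of 45 genes. The source of these directions was not tested.

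Core and cap genes tended to vary together from heart to heart. After the mean of each genotype was subtracted, the median pairwise Pearson correlation over the 12 hearts was 0.337 among the 91 pairs of core genes, 0.255 among the cap genes and 0.294 between core and cap. It was 0.00116 over all pairs of the 11189 genes and 0.0387 among the 3741 genes at least as bright. The 3 immunoproteasome genes had a median of 0.885. Their pairs had 0.407 with core genes and 0.297 with cap genes, so the pattern was not particular to core and cap. Pairs of core genes with activators had 0.25 and with assembly factors 0.152. Among themselves the assembly factors, at -0.016, showed no such pattern. Of these Psmg4, picked after the values were seen, had 0.583 with Psmb8, 0.743 with Psmb9 and 0.845 with Psmb10. The control sets were not centred apart, so the difference between them given above remains in these correlations. The correlations also share the arrays and their scaling and are given as a description. The level of the core as a whole, the median of its genes relative to WT, ran from -0.082 in replicate 3 of the second set to 0.073 in replicate 1 of the first set among controls, from -0.073 to 0.060 in Tg R211A hearts and from -0.080 to 0.015 in Tg S343D hearts.

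**Figure D4:**
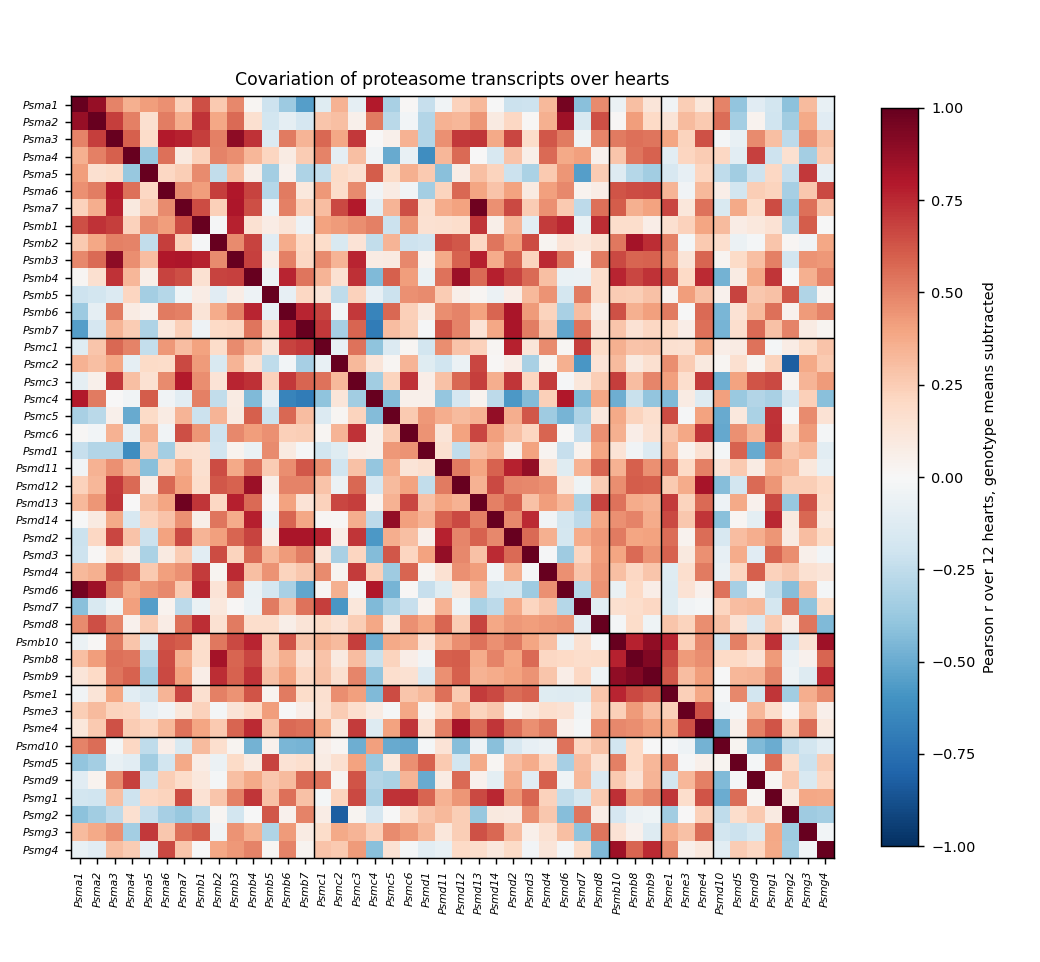
Pearson correlation of log2 signal over 12 hearts, with genotype means subtracted, for each pair of 44 proteasome genes (both axes, grouped in the order core, cap, immunoproteasome, activator, assembly, with lines between the classes). Red is positive and blue negative, and the block of Psmb10, Psmb8 and Psmb9 is the most uniform, with a median of 0.885.

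The immunoproteasome genes differed little between genotypes and much between mice. Psmb8, the inducible counterpart of Psmb5, had 204, 321 and 283 in Tg R211A hearts, 324, 291 and 244 in Tg S343D hearts, 306, 387 and 196 in the first control set and 231, 454 and 187 in the second. Psmb9, the counterpart of Psmb6, had 153, 217 and 189 in Tg R211A hearts, 213, 195 and 136 in Tg S343D hearts, 232, 212 and 154 in the first set and 146, 320 and 133 in the second. In each trio the values run in order of replicate number. The lowest and the highest heart of Psmb8 were both controls, and so were those of Psmb9.

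Psmb10, the counterpart of Psmb7, had 423, 520 and 472 in Tg R211A hearts, 572, 480 and 462 in Tg S343D hearts, 757, 486 and 425 in the first set and 398, 720 and 359 in the second. The log2 differences of Psmb8, Psmb9 and Psmb10 from controls were -0.068, -0.042 and -0.095 in Tg R211A hearts and 0.034, -0.095 and 0.0006 in Tg S343D hearts, with standard errors between 0.204 and 0.25, and none were called. The intervals ran from -0.60 to 0.47 and from -0.61 to 0.57. Between WT mice the SD of log2 signal was 0.528 for Psmb8, 0.485 for Psmb9 and 0.454 for Psmb10, larger than in 97.7%, 97% and 96.2% of the 11189 genes.

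Replicate 2 of the second control set was the highest heart for Psmb8 and Psmb9, and it was also the highest for the interferon response. Igtp, an interferon-inducible GTPase, read 2285 in this heart and between 331 and 822 in the others. To set each proteasome gene against this response, an interferon level was taken as the mean log2 signal of 10 interferon-induced genes, none of them a proteasome gene, which ran from 7.44 to 8.55. The slope of each gene on this level was then fitted over the 12 hearts with genotype in the model. Of 45 measured members 1 was called, Psmb8, beside 0.161% of all genes, and 6 had an unadjusted p under 0.05, beside 5.76%. Psmb8 rose by 1.14 log2 units for each log2 unit of the interferon level (SE 0.166, adjusted p = 0.0106 from limma). This fit was chosen after the data were seen.

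Psmb9 had a slope of 0.995 (SE 0.204, adjusted p = 0.126 from limma), Psmb10 of 0.66 (SE 0.225, adjusted p = 0.717) and Psme1 of 0.42 (SE 0.142, adjusted p = 0.706). The constitutive counterparts had slopes of 0.079 for Psmb5, 0.083 for Psmb6 and 0.064 for Psmb7. The 31 core and cap genes lay between -0.16 and 0.19. Slopes of the 7 assembly factors, Psmg4 among them, lay between -0.054 and 0.21, and none were called. The call of Psmb8 depended on single hearts. Its slope stayed between 1.08 and 1.25 with any 1 mouse left out, and it was called in 10 of the 12 fits. Without replicate 2 of the second set the adjusted p was 0.167, and without replicate 3 of that set, the heart with the lowest level, it was 0.0671. With both left out, the hearts farthest from the median level, the slope was 1.20 and the adjusted p 0.426. Without replicate 3 of the Tg S343D hearts Psmb9 was also called (adjusted p = 0.0353).

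**Figure D5:**
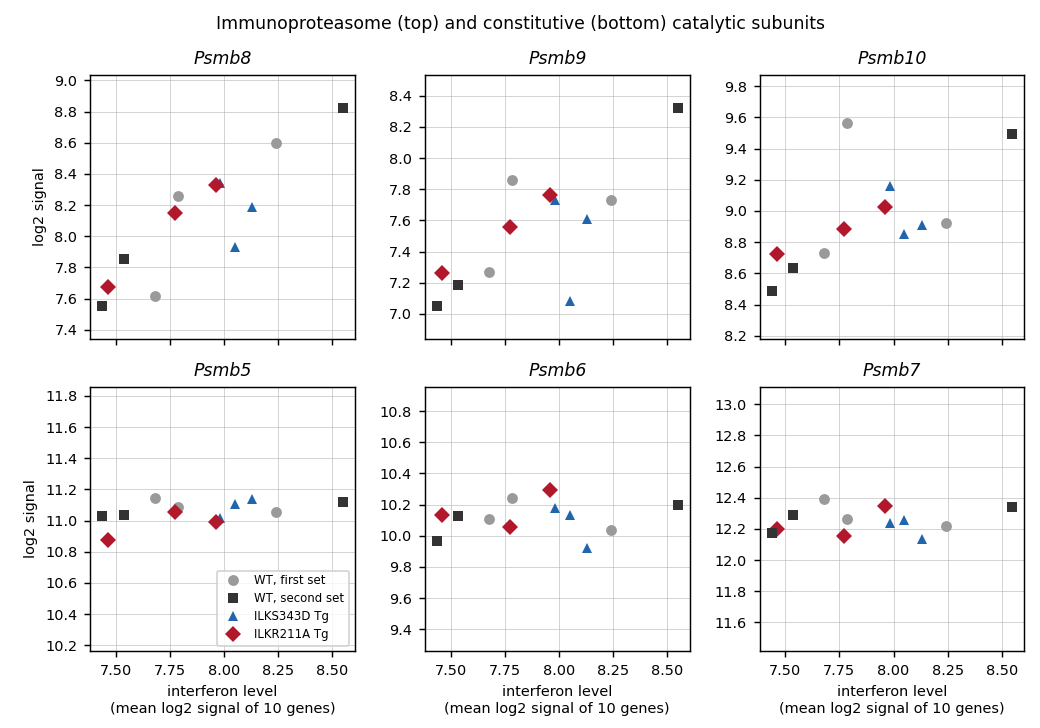
Log2 signal (y axis, each panel spanning the same range of log2 units) of the immunoproteasome genes Psmb8, Psmb9 and Psmb10 (top) and of the constitutive genes Psmb5, Psmb6 and Psmb7 (bottom) against the interferon level, the mean log2 signal of 10 interferon-induced genes (x axis), with 1 symbol per heart. The slopes of the upper genes are 1.14, 0.995 and 0.66, of which only that of Psmb8 passed the test, and those of the lower genes lie between 0.064 and 0.083.

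Of 13 measured genes that act with the immunoproteasome in antigen presentation, all had a slope above 0 and 4 were called, beside the 0.161% of all genes, H2-D1 (1.01), H2-K1 (1.14) and B2m (0.92), which form class I molecules, and Nlrc5 (1.59), their transcriptional activator. Tap1, a subunit of the peptide transporter whose gene lies between Psmb9 and Psmb8 on chromosome 17, had a slope of 1.39 (adjusted p = 0.0516 from limma). These calls too depended on replicate 2 of the second set, without which the adjusted p was 0.16 for H2-D1, 0.219 for H2-K1, 0.167 for B2m and 0.37 for Nlrc5. Without replicate 3 of that set Nlrc5 was not called either (adjusted p = 0.0834 from limma). With both replicates left out, none of the 4 was called. In bulk tissue, fewer cells of a type and less RNA per cell cannot be told apart, and which cells of the heart carry these transcripts was not measured. The summed signal of 10 macrophage markers was 3579 to 5045 in controls, 3814 to 4395 in Tg R211A hearts and 4219 to 5034 in Tg S343D hearts, and of 8 lymphocyte markers only 1 was above the filter. On the same interferon level, 9 of the 10 macrophage markers had a slope above 0, with a median of 0.22. None of these slopes passed the adjustment, and 3 of 10 had an unadjusted p under 0.05, beside 5.76% of all genes. The part of macrophages in the immunoproteasome signal was not tested. The 10 interferon genes had a median log2 difference of -0.14 in Tg R211A hearts, with 1 above 0, and of 0.16 in Tg S343D hearts, with all 10 above 0, and none were called.

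The promoters of Psmb8, Psmb9, Psmb10 and Psme1 are shown because these genes had the steepest slopes on the interferon level. Each runs from 250 bases before to 50 after the transcription start of RefSeq, GRCm38.p6, in the gene's sense. Capitals mark matches, on either strand, to TTCNNNGAA (a core of gamma-activated sites), the interferon response element core, or GAANNTTC (a heat shock element of 2 units).
Psmb8 promoter, chr17:34197945-34198244, plus strand: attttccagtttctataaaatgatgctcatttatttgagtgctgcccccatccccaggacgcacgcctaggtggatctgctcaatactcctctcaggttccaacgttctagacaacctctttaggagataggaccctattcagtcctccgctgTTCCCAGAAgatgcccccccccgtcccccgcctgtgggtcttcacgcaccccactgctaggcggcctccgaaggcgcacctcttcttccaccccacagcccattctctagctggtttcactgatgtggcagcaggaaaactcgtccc
Psmb9 promoter, chr17:34187281-34187580, minus strand: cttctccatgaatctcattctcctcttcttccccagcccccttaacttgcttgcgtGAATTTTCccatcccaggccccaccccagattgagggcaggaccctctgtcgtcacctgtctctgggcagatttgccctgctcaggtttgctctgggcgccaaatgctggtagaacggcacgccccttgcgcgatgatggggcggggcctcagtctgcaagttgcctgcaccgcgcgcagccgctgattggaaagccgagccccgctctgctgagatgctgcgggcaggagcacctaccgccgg
Psmb10 promoter, chr8:105938343-105938642, minus strand: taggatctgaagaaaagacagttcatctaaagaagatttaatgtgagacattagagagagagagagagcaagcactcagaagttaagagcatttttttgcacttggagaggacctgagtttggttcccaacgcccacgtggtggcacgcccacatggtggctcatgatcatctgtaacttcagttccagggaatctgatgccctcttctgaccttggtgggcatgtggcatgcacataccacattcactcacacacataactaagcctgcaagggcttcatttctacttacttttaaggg
Psme1 promoter, chr14:55578244-55578543, plus strand: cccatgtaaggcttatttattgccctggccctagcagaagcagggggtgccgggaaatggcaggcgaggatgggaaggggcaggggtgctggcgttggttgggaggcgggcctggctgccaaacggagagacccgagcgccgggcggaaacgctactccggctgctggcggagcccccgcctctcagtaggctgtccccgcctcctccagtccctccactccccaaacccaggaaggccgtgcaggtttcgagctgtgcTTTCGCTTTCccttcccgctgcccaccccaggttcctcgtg

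In Psmb8 the capitals are TTCCCAGAA at position -97 from the transcription start, in Psmb9 GAATTTTC at -194, and in Psme1 TTTCGCTTTC at 9, on the minus strand of the gene. Psmb10 held no match to these letters in this window. Of the 45 genes in the 5 classes, here with Psma8 and without Psme3ip1, 37 had a promoter in the table. The interferon response element core was found in 5 of the 37 (13.5%), Psme1, Psmd4, Psmd9, Psmg4 and Psmb3, and in 3.99% of all 27025 promoters. TTCNNNGAA was found in 3 (8.11%), Psmd2, Psmb8 and Psmg1, and in 9.55% of all. GAANNTTC was found in 2 (5.41%), Psmb5 and Psmb9, and in 9.04% of all, and the heat shock element of 3 units, which contains it, was found in 0 and in 0.662% of all. TGACNNNGC, the core of antioxidant response elements bound by Nfe2l1 and related factors, was found in 6 (16.2%), Psmb5, Psmb6, Psmc6, Psmd9, Psmd12 and Psme4, and in 14% of all. A match describes the letters of this window and no measured binding.

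Genes that work with the proteasome were not called either. Of 21 measured partners, which include the maturation protein Pomp, the transcription factor Nfe2l1, the segregase Vcp and the shuttle factor Rad23b, 0 were called in Tg R211A hearts and 0 in Tg S343D hearts. Their median log2 differences were -0.023 and -0.016, with 10 and 5 of 21 above 0. In Tg R211A hearts the smallest p belonged to Faf1, a cofactor of Vcp (-0.16, unadjusted p = 0.0668), Zfand2a, a stress-inducible proteasome-associated protein (0.19, unadjusted p = 0.0791), and Usp14, a deubiquitinase of the cap (-0.19, unadjusted p = 0.107). In Tg S343D hearts they belonged to Zfand2a (-0.25, unadjusted p = 0.0265), Uchl5, a deubiquitinase of the cap (0.092), and Zfand5 (-0.069).

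Zfand2a read 193, 228 and 233 in Tg R211A hearts, 139, 172 and 170 in Tg S343D hearts and 165 to 204 in controls. The lines did not overlap, and the difference between them was 0.45 (SE 0.118, unadjusted p = 0.00194, adjusted p = 0.257 from limma). Of the 13 genes of antigen processing 0 were called in either line. In Tg R211A hearts Canx (-0.16, unadjusted p = 0.0281), Erap1 (-0.087) and B2m (0.15) had the smallest p, and in Tg S343D hearts Tapbp (0.10), Canx (-0.087) and Nlrc5 (0.38), with adjusted p of 0.607 and above from limma.

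Several proteasome genes have more than 1 probe set above the filter, and these often disagreed in sign. Of 19 such genes, 13 had probe sets on both sides of 0 in Tg R211A hearts and 13 in Tg S343D hearts. Of Psmd13, a lid subunit, a dimmer probe set read 165, 134 and 168 in Tg R211A hearts and 180 to 214 in controls, with no overlap (log2 difference -0.34, SE 0.107, unadjusted p = 0.0064, adjusted p = 0.388 from limma), and 172 to 222 in Tg S343D hearts. The brightest probe set of Psmd13 gave 353, 375 and 380 in Tg R211A hearts against 316 to 372 in controls, a log2 difference of 0.13. Of Psmd11, also of the lid, a dimmer probe set read 801, 772 and 843 in Tg R211A hearts against 629 to 768 in controls (0.20, unadjusted p = 0.0152, adjusted p = 0.514 from limma), where the brightest gave -0.022. Of Psmb1, a dim probe set with control signals of 25.7 to 69.1 gave 0.66 in Tg S343D hearts and 0.51 in Tg R211A hearts. In Tg S343D hearts this exceeded the difference of Psmg4, while the 2 other probe sets of Psmb1 lay below 0. Psmd13, Psmd11, Psmb1 and the dimmer probe set of Psmd9 were singled out after their values were seen. With all 75 member probe sets above the filter counted, 0 were called in either line.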

How the data were processed

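RNA of 12 hearts, 1 array per mouse, was measured on Affymetrix arrays. The authors computed MAS5 signal intensities, deposited as 1 table on a linear scale. The sources used here give neither their software version nor a scaling target. From these intensities the 64 array controls were left out, signals were taken to log2 as deposited, and 22519 of 45037 probe sets at or above the median of the mean log2 signal were tested with limma 3.58.1 in R 4.3.3 (empirical Bayes with a trend, 3 genotype groups, 12 arrays, Benjamini-Hochberg). The control sets were compared with 4 groups. Genes came from the platform annotation, in which 932 probe sets name several genes and 9160 none.

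The members and lists were chosen with earlier results of these data known. Values in every sample are given for Ilk, for members called, for the 5 with the smallest p in each comparison, and for the catalytic subunits and Psme1 and Psme2. Of each list the 3 genes with the smallest p against WT are named. Groups were also compared with exact permutation tests. Replicate numbers of Tg R211A and the second control set follow adjacent heart numbers, and all 3 same-number correlations of deviations exceeded 0.1 (0.119 to 0.179, against -0.129 to -0.0276 for other pairs), so they were also fitted as pairs. For Tg S343D and the first set 2 of 3 did (0.0709 to 0.209), and 1 title without a number was taken as replicate 1. Deviations were taken from the mean of each group of 3, so the correlations of same-number and other pairs are not independent. Alternatives covered scaling, offset, filters, prior variance, array weights, arrays, replicate block, control sets, single mice, probe sets and thresholds. The 6 pairs, the interferon level, the atrial level as a covariate and the interferon motifs were added after the data were seen. Promoters and gene order are those of RefSeq (GRCm38.p6). The procedure was tested on simulated data. Plots were made in Python 3.11.15 (matplotlib 3.10.9). The planned protein stretches were not used here.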

Additional observations from a re-analysis of the deposited data

Results flagged for a closer look

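In Psmd2, a scaffold subunit of the cap, replicate 3 of the second control set read 1378, apart from the other 5 controls, with a gap of 0.724 of the group's range. It was the 1 of 45 genes with such a sample, and chance gives about 1 in 20. Psmd8 and Psma2 moved in opposite directions in the lines, with every Tg R211A heart on one side of the control mean and every Tg S343D heart on the other. The difference between the lines was 0.31 for Psmd8 and 0.15 for Psma2 on the log2 scale, with adjusted p of 0.257 and 0.566 from limma, and it was not called for either.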

How the results depend on the processing

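No proteasome gene was called against WT, between the lines or between the control sets under any alternative that keeps an adjusted p, leave-one-out fits included (0 to 0). Over 3774 combinations of gene, comparison and alternative 0 were called, 282 uncalled signs turned and 29 values moved by over 1 SD between WT mice. By unadjusted p the counts were 3 for Tg R211A hearts, 4 for Tg S343D hearts, 4 between the lines and 4 between control sets, and by groups that do not overlap they were 1, 1 and 9. For the slope on the interferon level, chosen after seeing the data, the count was 1, was 0 to 2 with 1 mouse left out, was 0 with the 2 hearts farthest from the median level left out, and was 6 by unadjusted p. The 15 class medians stayed within 1 SD between WT mice in 397 of 405 alternatives. The exceptions were core and cap in Tg S343D hearts against the first control set alone, with or without pairs (-0.068 and -0.078), core and cap between the lines with arrays centred on their median (0.032 and 0.12), the cap between the lines with the interferon level as a covariate (0.11), and the mean of the assembly factors between the lines (-0.028). The cause was not tested.

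Replicate numbers shared by all groups are no pairing across the control sets. Over 18 pairs of the same number the correlation of deviations ran from -0.205 to 0.209, and the 5 above 0.1 all lay between a line and the control set of its heart numbers. Some pairs of different number also exceeded 0.1, up to 0.133. With the number as a replicate block over all groups, and with the replicate block of 6 pairs, 0 proteasome genes were called in each comparison. Of all 11189 genes, the block over all groups called 28 in Tg R211A hearts, 1 in Tg S343D hearts and 16 between the lines. With 3 mice a line, real changes may go uncalled. The intervals given hold the differences compatible with the data and are not adjusted for the number of tests. Detection calls were not used here.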
